A study of Mus musculus with 4 samples.

Results

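Accessible chromatin was mapped by ATAC-seq, an assay that tags open DNA with a transposase, in mouse glioblastomas grown in hosts that lacked the Esm1 gene (KO) or carried it (WT). The 1246 regions described here were open, by the presence of a called peak, in KO replicate 2 and WT replicate 1 and had no peak in KO replicate 1 or WT replicate 2. They were selected on measured values, the presence and absence of peaks, from 118874 autosomal regions formed by merging the 4 peak lists wherever peaks shared at least 1 bp. The sex chromosomes and a segment of chromosome 13 that holds Esm1 (chr13:113209659-113218098, mm10) were left out by the selection, and all merged regions numbered 122166. Because the pattern crosses the genotypes, presence itself says nothing about KO against WT, and none of its counts was tested.

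Each group held 2 tumors. KO hosts were Esm1 knockout mice and WT hosts carried intact Esm1, all on the C57BL/6 strain, and the study used female mice only. Host age is stated differently in the study's methods and in its reporting form, and the labels give none. Every tumor was formed by mG7080 cells, a sphere-cultured line from murine tumors with deleted tumor suppressor genes, Trp53 and Nf1 among them, which carry their own Esm1, so that the knockout concerns the host. The labels name tumor tissue while the study's methods name freshly isolated tumor cells, and the sources used here do not settle which entered the libraries. No library had a peak over Esm1 or within 1000 bp of it, so the peak lists do not check the genotype labels.

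The libraries differed in depth and in peak number. They held 82975 peaks in KO replicate 1, 85418 in KO replicate 2, 63000 in WT replicate 1 and 100088 in WT replicate 2. Genome background, recovered from the peak values as a measure of relative depth, was 6.03 read ends in KO replicate 1, 6.71 in KO replicate 2, 4.41 in WT replicate 1 and 6.85 in WT replicate 2. WT replicate 1 thus had both the lowest depth and the fewest peaks. The KO2/WT1 regions were 1.46% of the KO replicate 2 peaks and 1.98% of the WT replicate 1 peaks. For comparison, 7972 regions were open only in KO replicate 1 and WT replicate 2, 1965 only in both KO libraries, 1734 only in both WT libraries and 46802 in all 4.

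SOX proteins are transcription factors with an HMG box that binds the letters ACAAAGG or ACAATGG in the minor groove. In the brain, Sox10 and its relatives Sox8 and Sox9 act in the oligodendrocyte lineage, the glial cells that make myelin, and can bind facing pairs of such sites as dimers. Oligodendrocyte precursors carry Olig1, Olig2, Nkx2-2 and Sox10, and their maturation turns on Myrf and the genes of the myelin sheath. Precursor-like states are common in glioblastoma.

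Sequences around the summits are given first. Each is 200 bases of the mm10 plus strand, read from the RefSeq copy of GRCm38 and lying outside annotated exons. Capitals mark ACAAAGG or ACAATGG on either strand, the 5-letter cores of facing SOX pairs 5 to 7 bases apart, and the E-box CAGCTG. The highest-ranked region, an intronic region nearest to Gli2 and 4 regions near oligodendrocyte lineage genes are shown as examples. They were picked for the motifs they hold and are not typical of the gene lists: of the 9 regions linked to mature oligodendrocyte genes, the one near Myrf was the only one with ACAAAGG or ACAATGG, so the SOX and oligodendrocyte results rest on largely different regions.
Intergenic, nearest to Bdkrb2, chr12:105526928-105527127: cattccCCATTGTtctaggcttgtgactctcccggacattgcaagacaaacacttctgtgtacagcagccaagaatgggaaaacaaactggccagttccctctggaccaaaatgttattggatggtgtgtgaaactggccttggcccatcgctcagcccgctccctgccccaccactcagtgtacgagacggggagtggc
Intronic, nearest to Gli2, chr1:119048013-119048212: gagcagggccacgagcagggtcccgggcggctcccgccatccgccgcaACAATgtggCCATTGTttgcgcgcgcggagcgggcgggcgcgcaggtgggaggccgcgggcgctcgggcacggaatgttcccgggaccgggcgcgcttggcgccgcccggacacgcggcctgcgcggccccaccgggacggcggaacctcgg
Intronic, nearest to Nkx2-2, chr2:147180724-147180923: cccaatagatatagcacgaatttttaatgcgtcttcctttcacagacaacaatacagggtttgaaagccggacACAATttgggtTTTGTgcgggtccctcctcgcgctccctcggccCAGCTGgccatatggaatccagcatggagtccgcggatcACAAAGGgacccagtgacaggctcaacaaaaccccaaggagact
Intronic, nearest to Ugt8a, chr3:125898994-125899193: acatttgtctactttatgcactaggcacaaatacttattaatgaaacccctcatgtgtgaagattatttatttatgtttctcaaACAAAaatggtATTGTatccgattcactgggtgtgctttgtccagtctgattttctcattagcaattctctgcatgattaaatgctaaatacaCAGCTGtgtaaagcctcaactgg
Intronic, nearest to Opalin, chr19:41101456-41101655: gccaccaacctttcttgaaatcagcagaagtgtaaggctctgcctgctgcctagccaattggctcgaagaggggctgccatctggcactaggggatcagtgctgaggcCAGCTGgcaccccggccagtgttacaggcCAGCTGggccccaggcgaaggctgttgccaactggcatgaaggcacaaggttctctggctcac
Intronic, nearest to Myrf, chr19:10232652-10232851: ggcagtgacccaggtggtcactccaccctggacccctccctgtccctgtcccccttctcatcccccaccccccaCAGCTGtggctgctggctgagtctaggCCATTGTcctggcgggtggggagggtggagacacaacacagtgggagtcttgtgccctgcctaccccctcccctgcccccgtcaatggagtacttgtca
The Gli2, Nkx2-2 and Ugt8a regions each held a facing pair of SOX cores with 6 bases between them. The Opalin region held CAGCTG at 2 places, and the Myrf region held it together with a SOX motif.

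A SOX motif stood within 100 bp of the summit in 215 of the 1246 KO2/WT1 regions. That was 17.3% (95% Wilson interval 15.3 to 19.5), against 5.84% of all regions, and the interval covers counting error only. The form ACAATGG was in 7.06% of the KO2/WT1 regions and 2.18% of all regions. The form ACAAAGG, searched after the values of the listed motifs had been seen, was in 11.2% and 3.78%. Among the 15 combinations of libraries the KO2/WT1 regions had the highest SOX share. Regions open in WT replicate 1 alone came next with 13.7%, and regions open in KO replicate 2 alone had 7.93%. The mirror-image class, open only in KO replicate 1 and WT replicate 2, had 4.94%, and regions open in all 4 libraries had 4.8%. Regions open only in both KO libraries had 6.46%, and those open only in both WT libraries had 8.07%. The 3-library classes that added KO replicate 1 or WT replicate 2 to the pair held 9.17% and 9.40%.

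**Figure D1:**
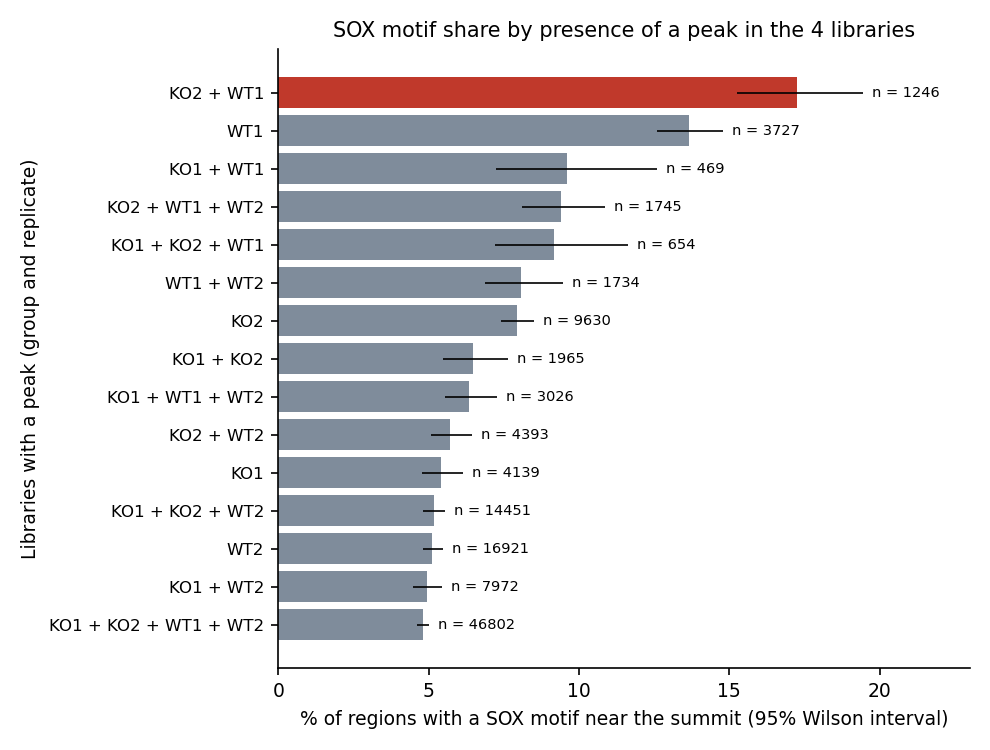
Share of regions with a SOX motif (ACAAAGG or ACAATGG, either strand) within 100 bp of the summit, in percent along the horizontal axis, for each combination of libraries with a peak down the vertical axis. Bars are shares, lines are 95% Wilson intervals and n is the number of regions; the KO2 + WT1 class at the top holds 17.3% and the class open in all 4 libraries at the bottom 4.8%.

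The motif was concentrated at the summit. In 50 bp bins, 5.70% of the KO2/WT1 regions had a SOX motif in the bin just left of the summit and 5.14% in the bin just right of it, against 1.93% in the bin centred 275 bp to the left. In the class open only in KO replicate 1 and WT replicate 2, and in regions open in all 4 libraries, the share dipped at the summit, as the plot of motif positions shows. The share also followed peak rank. With regions ranked by the lower of their 2 within-library percentiles of the deposited p-value and cut into 3 bins, the SOX share was 24.3% of the 415 highest-ranked, 14.7% of the 415 in the middle and 12.7% of the 416 lowest-ranked. The same bins held CAGCTG in 32.5%, 24.6% and 19.2%. The SOX share depended on how many peaks each list held. With the same number of peaks taken from every list, 2393 regions had the pattern. The form ACAATGG was in 4.30% of them, against 2.19% of all regions in the same setting.

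Facing SOX pairs were searched after the motif shares had been seen and are given as a description. A pair is ACAAA or ACAAT, a gap, and then ATTGT or TTTGT. With a gap of 6 bases it was found in 16 of the KO2/WT1 regions, 1.28%, against 0.153% of all regions. With gaps of 5 and 7 bases it was found in 9 and 7 regions. Taken over gaps of 5 to 7 bases, 30 regions held a pair, 2.41%, against 0.446% of all regions and 0.339% of those open only in KO replicate 1 and WT replicate 2. A gap of 15 bases was also found in 7 regions, and every other gap up to 15 in 5 or fewer.

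**Figure D2:**
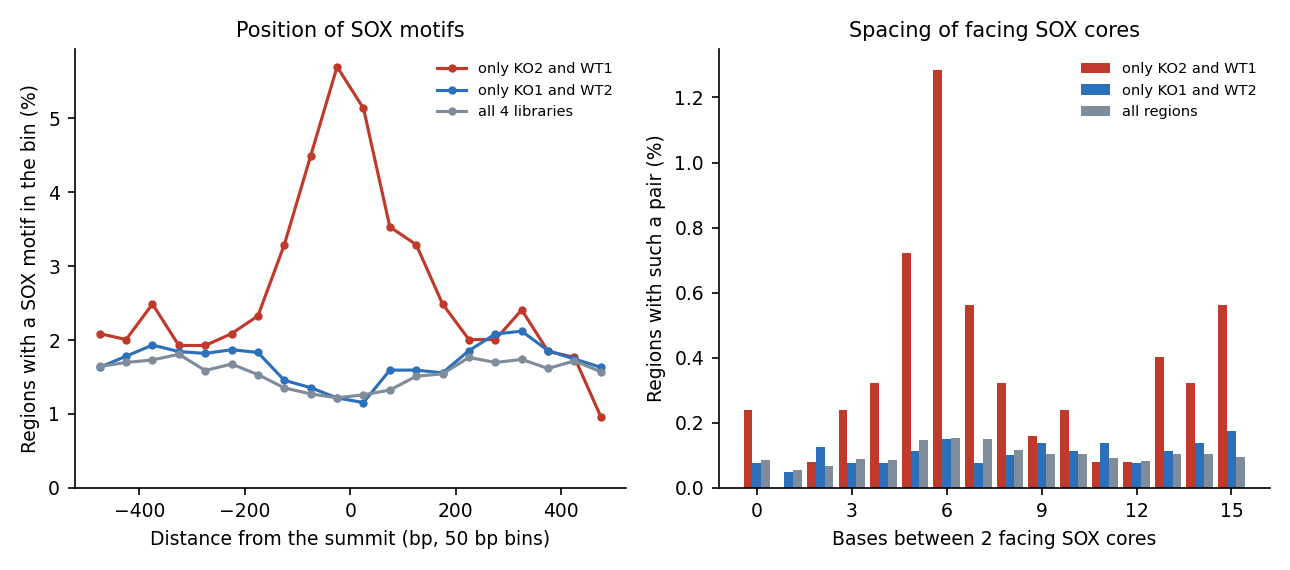
Left, share of regions with a SOX motif in each 50 bp bin, in percent, by distance from the summit in bp; the KO2 and WT1 class peaks at 5.70% just left of the summit. Right, share of regions with 2 facing SOX cores, in percent, by the number of bases between them; the KO2 and WT1 class is highest at 6 bases, with 1.28% against 0.153% of all regions.

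Of 36 motifs searched on both strands, the interval of the KO2/WT1 share lay above the share of all regions for 6 and below it for 10. CAGCTG, an E-box bound by basic helix-loop-helix proteins, was in 25.4% of the KO2/WT1 regions and 16.5% of all regions. AGGTCA, the core read by many nuclear receptors, was in 12.4% and 6.61%. The CTCF motif was in 4.17% and 2.60%, but its share was 2.03% when KO replicate 2 was left out of the selection and 2.28% when WT replicate 1 was. The shares were, for the NFI core TTGGCA, 19.98% and 15.7%, and for the forkhead motif TGTTTAC 3.61% and 2.38%. Several motifs were scarcer. The AP-1 motif (TGACTCA or TGAGTCA), bound by Fos and Jun dimers, was in 4.74% of the KO2/WT1 regions and 8.79% of all regions. AGATAA, read by GATA factors, was in 4.41% and 8.18%, but in 8.595% of the regions selected without KO replicate 2. The E-box CATATG was in 2.57% and 5.70%. The MEF2 motif was in 0.321% and 1.06%. The homeobox core TAATTA was in 2.97% and 4.47%, but among regions with a GC content of 45% to 60% it was in 3.09% and 3.04%. The YY1 motif was in 0 of 1246 regions, which allows a share of up to 0.241%, against 0.427% of all regions. Away from promoters all regions held it in 0.231%, which is within that limit. Within 45% to 60% GC, CAGCTG was in 25.7% of the KO2/WT1 regions and 19.95% of all regions. The class open in KO replicate 2, WT replicate 1 and KO replicate 1 held CAGCTG in 25.1%, close to the KO2/WT1 share. With WT replicate 2 as the added library it was 18.2%. In regions open in WT replicate 1 alone and in KO replicate 2 alone, CAGCTG was in 16.5% and 20.7%. In the same order, CTCF was in 1.56% and 2.06%, AGGTCA in 12.9% and 10.2% and the NFI core in 13.6% and 21.2%. The forkhead motif was in 2.36% and 4.02%, AP-1 in 4.99% and 7.73%, AGATAA in 9.53% and 6.95% and CATATG in 2.87% and 4.74%. AGGTCA, the NFI core and the forkhead motif thus did not have their highest share in the KO2/WT1 regions. Nor did CTCF, which was in 7.62% of the class open in KO replicate 2, WT replicate 1 and WT replicate 2. In the class open in KO replicate 2, WT replicate 1 and KO replicate 1 its share was 5.66%.

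Location and base composition differed from those of some classes and lay close to those of others. Median GC content over 200 bp was 52.5% in the KO2/WT1 regions, 49% in all regions, 45.5% in the class open only in KO replicate 1 and WT replicate 2, and 52% in regions open in all 4 libraries. A promoter of a protein-coding gene, 1000 bp on either side of a start site, overlapped 141 KO2/WT1 regions, 11.3% (9.67 to 13.2), against 15.9% of all regions and 5.34% of the KO replicate 1 and WT replicate 2 class. The direction against all regions turned when 500 bp windows around the summits were merged in place of peaks, with 18.8% of the KO2/WT1 regions and 16.5% of all regions over a promoter. In the classes that added KO replicate 1 or WT replicate 2 to the pair, 14.4% and 11.4% were over promoters. Their median GC was 53% and 51%. By summit, 45.2% of the KO2/WT1 regions lay in introns, 40.4% were intergenic and 3.13% lay in exons outside promoters. Over all regions these shares were 41.2%, 39.5% and 3.37%. The median distance to a start site was 16.03 kb, against 20.3 kb over all regions. Repeats covered 9.32% of the summit windows on average, against 11.3% over all regions.

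The same pair of libraries also gave GC-rich regions relatively more height where all 4 had a peak. At the 12281 such regions with a GC content of 60% or more, the median log2 height minus the library median was 0.77 in KO replicate 1, 0.91 in KO replicate 2, 1.05 in WT replicate 1 and 0.70 in WT replicate 2. At the 9410 regions with under 45% GC the order was the other way round, with −0.23, −0.34, −0.33 and −0.25. Heights of KO replicate 2 and WT replicate 1 both lay above those of KO replicate 1 and WT replicate 2 at 8650 of 14236 promoter regions open in all 4 libraries, 60.8%, and at 15441 of all 46802 such regions, 33%. The part of this shared tilt in the GC content and promoter share of the KO2/WT1 regions was not tested. Measured within 45% to 60% GC, the SOX share was 17.7% in the KO2/WT1 regions and 6.34% in all regions, and away from promoters it was 18.2% and 6.19%. Regions open in all 4 libraries that had this height order held a SOX motif in 5.34%, close to the 4.8% of all 46802.

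**Figure D3:**
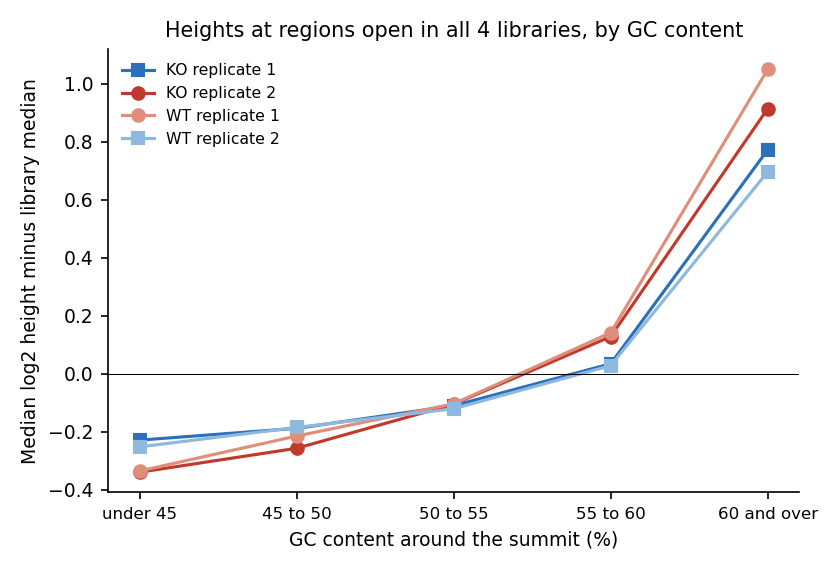
Median log2 peak height minus the library median, on the vertical axis, at regions open in all 4 libraries, by GC content of the 200 bp around the summit in percent. At 60% GC and over, KO replicate 2 (0.91) and WT replicate 1 (1.05) lie above KO replicate 1 (0.77) and WT replicate 2 (0.70).

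The regions were modest peaks. Heights, recovered as whole read ends from the deposited fold and p-value, had a median of 29 in KO replicate 2 (range 16 to 101) and 21 in WT replicate 1 (13 to 65). Over regions open in all 4 libraries the medians were 43 and 29. The median region stood at the percentile 33.8 of all KO replicate 2 peaks and 29.0 of all WT replicate 1 peaks, and 113 regions (9.07%) were above the median peak in both. The regions closest to the selection threshold had a lowest deposited −log10 q of 1.43, and 29 regions had a value under 2 in at least 1 of their libraries. Just outside it, 1745 regions had the pair and WT replicate 2, with a lowest −log10 q of 1.41 for the added peak, and 654 had the pair and KO replicate 1, with 1.40. The nearest KO replicate 1 peak was 6585 bp away in the median and the nearest WT replicate 2 peak 5210.5 bp away. The closest such peaks lay 29 and 24 bp from a region.

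Height and summit position agreed between the libraries only in part. After scaling to the medians of regions open in all 4 libraries, KO replicate 2 was at least 2-fold higher in 11 KO2/WT1 regions (0.883%), against a background of 0.447% over regions open in all 4. WT replicate 1 was at least 2-fold higher in 62 (4.98%), against 0.459%. The order of these shares depended on the peak threshold. At a deposited −log10 q of 5 or more, KO replicate 2 was 2-fold higher in 1.78% and WT replicate 1 in 1.498%, and with equal numbers of peaks per list the shares were 1.96% and 0.836%. With 1 library on each side there was no test. The log2 heights had a Pearson r of 0.36 across the 1246 regions and 0.88 across regions open in all 4, where heights span a wider range. The 2 summits were 65.5 bp apart in the median, against 53 bp in regions open in all 4 libraries and 66 bp in the class open only in KO replicate 1 and WT replicate 2. In the highest-ranked 415 regions the median distance was 52 bp, and in the lowest-ranked 416 it was 81 bp.

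**Figure D4:**
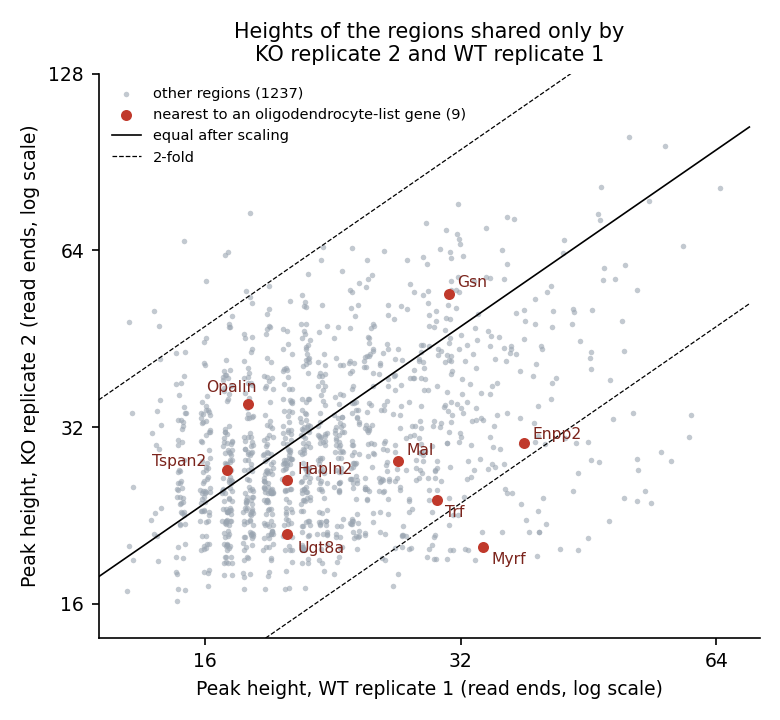
Peak height in KO replicate 2 against WT replicate 1, both in read ends on log2 axes, for the 1246 regions; points are shifted slightly to separate ties, except the 9 regions nearest to an oligodendrocyte-list gene, in red. The solid line marks equal scaled height and the dashed lines 2-fold; 62 regions lie past the lower dashed line and 11 past the upper.

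The list of mature oligodendrocyte genes had the highest share among the 25 gene lists examined. Of 939 KO2/WT1 regions within 50 kb of the start site of their nearest protein-coding gene, 9 were nearest to a gene of the mature oligodendrocyte list, each to a different gene. They made up 6.47% of the 139 regions of any kind linked to that list, against 1.16% of the 80790 regions linked to any gene. The precursor list had 5 regions, 3.65% of its 137. The immediate early and AP-1 list had 6, 5.31% of its 113. At a −log10 q of 5 or more the counts were 5 for the mature list, 3 for the precursor list and 2 for the immediate early list. Put the other way, 0.722% of the KO2/WT1 regions and 0.117% of all regions were linked to the mature list, as were 0.0753% of the class open only in KO replicate 1 and WT replicate 2, 0.0509% of the KO-only class and 0 of the 1734 WT-only regions. With KO replicate 2 left out of the selection, 30 of 5026 regions were linked to this list. With WT replicate 1 left out, 16 of 10903 were, fewer linked regions in a larger set. Both sets also take in regions of the KO2/WT1 pattern. The link was thus not limited to regions that WT replicate 1 shared with KO replicate 2. Its share was lower where WT replicate 1 was left out than where KO replicate 2 was. Since the lists were chosen with earlier results of these data known, the counts are descriptions.

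The 9 regions near mature oligodendrocyte genes were spread over the rank order, with 3 in each of the 3 rank bins. The intronic region nearest to Gsn, which encodes the actin-severing protein gelsolin, had heights of 54 read ends in KO replicate 2 and 31 in WT replicate 1. The intronic one nearest to Enpp2 (autotaxin, an enzyme that makes lysophosphatidic acid) had 30 and 38. The promoter of Mal, a proteolipid of myelin, had 28 and 27 read ends, and the region near Hapln2, a link protein of the nodes of Ranvier, had 26 and 20. After scaling, the log2 difference of KO replicate 2 from WT replicate 1 was 0.23 at Gsn, −0.91 at Enpp2, −0.52 at Mal and −0.19 at Hapln2, so none of the 4 reached 2-fold. The region near Opalin, an oligodendrocyte membrane glycoprotein, had heights of 35 in KO replicate 2 and 18 in WT replicate 1. The region near Ugt8a, which makes the myelin lipid galactosylceramide, had 21 and 20. Lower-ranked still were the regions near Trf (transferrin, the iron carrier; 24 and 30 read ends), the tetraspanin gene Tspan2 (27 and 17) and Myrf, the transcription factor that turns on myelin genes (20 and 34). At Myrf the scaled log2 difference was −1.33, past 2-fold in favour of WT replicate 1. By selection, none of these regions had a peak in KO replicate 1 or WT replicate 2.

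Regions of the precursor list were linked to Olig1 and Nkx2-2, transcription factors of the lineage, to Sox6, and in 2 cases to Cspg4 (the NG2 proteoglycan of precursors and of pericytes). The Olig1 region lay 3.35 kb from the start site with heights of 63 in KO replicate 2 and 31 in WT replicate 1. The Nkx2-2 region had heights of 51 and 44, and the region over a Sox6 promoter 35 and 22. The Cspg4 regions, at 52 and 22 and at 64 and 17 read ends, were both intronic and were the only ones linked to the mural list. In the immediate early list, regions were linked to Fos (2 regions), Dusp1, Zfp36, Nr4a1 and Klf4, genes that cells switch on within minutes of a stimulus. The region 1.48 kb from Fos had heights of 74 in KO replicate 2 and 36 in WT replicate 1, and that over the Zfp36 promoter 69 and 32.

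The mural list had 2 of 61 linked regions, 3.28%, both of them the Cspg4 regions it shares with the precursor list. The remaining lists had shares between 0 and 1.59%. No KO2/WT1 region was linked to the astrocyte, endothelial, microglia and macrophage, T and NK cell, or neutrophil and erythroid lists, nor to those for interferon response, antigen presentation or the MYC network. The astrocyte list had 0 of 129 linked regions, which allows a share of up to 2.33%, and the endothelial list 0 of 100, which allows up to 3.0%. The neuron list had 2 of 274 and the synapse and ion channel list 3 of 504, or 0.595%. The NF-kB, hypoxia, growth factor receptor, cell cycle, heat shock, angiogenesis and neural stem cell lists had 1 region each, and the RAS and PI3K, mesenchymal, Notch and neural transcription factor lists had 2 each.

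**Figure D5:**
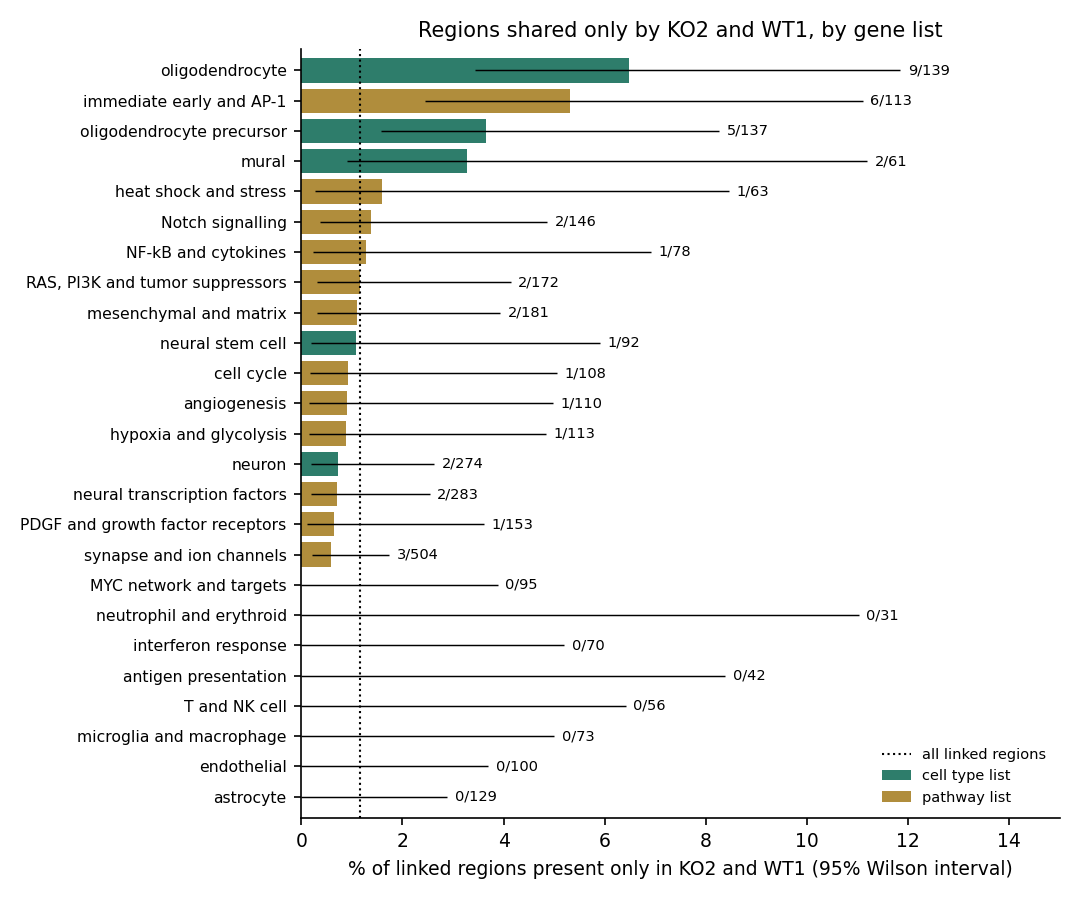
Share of the regions linked to each gene list (nearest start site within 50 kb) that were open only in KO2 and WT1, in percent, with 95% Wilson intervals and counts. The dotted line is the 1.16% over all linked regions; the oligodendrocyte list is highest with 9 of 139, 6.47%.

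Oligodendrocyte promoters were open most often in WT replicate 1, but regions linked to the mature list were not. Apart from the KO2/WT1 regions, 89 linked regions had a peak in KO replicate 1 and 93 in KO replicate 2. In WT replicate 1 the count was 93, and in WT replicate 2 it was 101. Promoters of the 22 mature list genes held a peak for 13 genes in KO replicate 1, 15 in KO replicate 2, 20 in WT replicate 1 and 13 in WT replicate 2, although WT replicate 1 had the fewest peaks. Ermn, Mag, Mobp, Mog, Nkx6-2 and Opalin had a promoter peak in WT replicate 1 only, while Mal and Sox10 had one in KO replicate 2 and WT replicate 1. Precursor promoters were open for 16, 18, 16 and 15 of 20 genes in the order KO replicate 1, KO replicate 2, WT replicate 1 and WT replicate 2. Endothelial promoters were open for 7, 11, 7 and 11 of 24 genes, microglia and macrophage promoters for 6, 7, 5 and 9 of 25, and astrocyte promoters for 15, 15, 15 and 16 of 18. Of 11 mature list promoters open in all 4 libraries, KO replicate 2 and WT replicate 1 both had the highest centred heights at 9, or 81.8%, beside the 60.8% over all promoters. Other lists had as high a share, with 11 of 12 promoters of the antigen presentation list, 17 of 19 of the hypoxia list, 15 of 18 of the heat shock list and 9 of 11 of the NF-kB list. At Trf the centred log2 heights were −0.77 in KO replicate 1, 0.19 in KO replicate 2, 0.39 in WT replicate 1 and −1.06 in WT replicate 2. The part of these library differences in the counts of linked regions was not tested. In bulk libraries, more cells of a type and more open chromatin per cell cannot be told apart.

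The highest-ranked regions lay near genes of several functions. The region nearest to Bdkrb2, 36.0 kb from its start site, ranked highest, with 60 read ends in KO replicate 2 and 50 in WT replicate 1 and folds over local background of 6.21 and 8.61. The intronic region nearest to Prkca, the protein kinase C alpha gene, had heights of 65 and 59. The intronic region nearest to Slc5a11, a sodium-coupled inositol transporter, had 43 and 40. The intronic region nearest to Gli2, a transcription factor of Hedgehog signalling, had 48 and 41 read ends. Regions near Elf5 (47 and 33), Pik3r1 (the p85 alpha subunit of PI3 kinase; 38 and 33) and Picalm (41 and 31) were also among the 20 highest. None of these heights differed by 2-fold between the libraries after scaling. Genes with 3 linked regions included Alox5ap, Clip2, Dusp7, Kazn and Ttc7b, and 75 genes had 2. The Clip2 regions, all intronic, had heights of 63, 47 and 58 read ends in KO replicate 2 and 42, 25 and 25 in WT replicate 1.

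Promoter regions of this pattern touched 141 protein-coding genes, and for 52 of them neither KO replicate 1 nor WT replicate 2 had a peak at any annotated promoter of the gene. Counted over regions of any pattern, 60 of the 15150 genes with a promoter peak in any library had such peaks only in KO replicate 2 and WT replicate 1. Hepacam, a glial cell adhesion gene, was such a case, with heights of 57 in KO replicate 2 and 34 in WT replicate 1. So were Tcf7l2, a Wnt pathway transcription factor also used in maturing oligodendrocytes (66 and 32), Bcas1, expressed in newly myelinating oligodendrocytes (42 and 31), S100a16 (46 and 31), Agmo (40 and 28) and Tnfrsf12a, the receptor for TWEAK (57 and 49). Metrn (66 and 42), P2rx2 (30 and 27) and Opn4 (36 and 41) were such cases too and ranked above Bcas1. Other genes had a peak of KO replicate 1 or WT replicate 2 at an annotated promoter outside the merged region. These included Plekho2 (54 and 40 read ends), Scamp5 (96 and 55), Rtkn (72 and 47) and Ebf1 (71 and 29).

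The regions were spread over all 19 autosomes. They made up between 0.68% of the regions on chromosome 10 and 1.41% of those on chromosome 7, and no window of 2 Mb held more than 8. Only 73 regions had another within 10 kb. Local background was low, with a median of 1.12 times the genome background in KO replicate 2 and 1.07 times in WT replicate 1, against 1.36 and 1.31 times at regions open in all 4 libraries.

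KO against WT was tested only where the selection was not used, at regions open in all 4 libraries. With limma on centred log2 heights of 48089 such regions, including those on the sex chromosomes and chromosome 13 segment, 18 regions were higher and 1 lower in KO at a Benjamini-Hochberg adjusted p under 0.05, or 0.0395%. Within 10 kb of a KO2/WT1 region lay 754 tested regions, and 0 of them passed, with a lowest adjusted p of 1.00. At an unadjusted p under 0.05 there were 32 (4.24%), against 3.07% of all regions tested. The region near a member with the lowest p was nearest to Rapgef3. Before centring, its heights were 41 and 101 in the KO libraries and 41 and 33 in the WT libraries. Medians over regions open in all 4 libraries were 43 in KO replicate 2 and 29 in WT replicate 1, so both stood above their library median there. A fit without 1 of the libraries leaves a group with 1 library, which is assumed to vary like the other group, so its calls were not interpreted. The median log2 difference of KO from WT at the 754 regions was 0.03 without KO replicate 1 and −0.06 without KO replicate 2. It was 0.05 without WT replicate 1 and −0.08 without WT replicate 2. In the same order, it was 0.01, −0.02, 0.05 and −0.07 over all regions tested. No other tool was run on these heights. At these 754 neighbours the median centred log2 height was 0.03 in KO replicate 1, 0.10 in KO replicate 2, 0.14 in WT replicate 1 and 0.04 in WT replicate 2. At the 82 within 1 kb it was −0.02, 0.08, 0.10 and −0.09. The medians of KO replicate 2 and WT replicate 1 were the higher ones at both distances, a difference that was not tested.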

How the data were processed

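The 4 libraries (2 KO and 2 WT tumors) were grouped by their titles, and each was analysed from its own peak list. The authors deposited, for each peak, its enrichment as a fold (a linear ratio), its p-value and q-value as −log10, and an integer score, which was not used. MACS2, HOMER and mm10 appear, without versions, in the processing notes of the submitters, while the study's methods describe Bowtie2 alignment to GRCm38 and peak calling by Genrich; the deposited columns follow MACS2, at a q-value threshold of 0.05. No source used here states a transposase shift. Peaks were called per library, so an absent peak can be a peak just under the threshold, most easily in WT replicate 1.

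Overlapping peaks (1 bp or more) of the 4 lists were joined into regions. Heights were recovered as the whole number of read ends whose Poisson tail matched the deposited −log10 p within 0.001, which held for every peak. A region without a peak has no height. Protein-coding genes came from GENCODE M21, and sequence came from RefSeq GRCm38.p6, the coordinates of mm10. Motifs were searched in 200 bp around the summit of the library with the higher −log10 p. Shares carry 95% Wilson intervals. KO was compared with WT by limma 3.58.1 in R 4.3.3 (mean-variance trend, log2 heights centred on library medians, Benjamini-Hochberg adjustment). The labels do not say whether tumors shared a batch, and p-values measure the spread between these tumors. Functions were tested on simulated data. Named regions were the 20 highest by the lower of their 2 percentiles of −log10 p, promoter genes up to 20 by that rank, genes with 3 linked regions, up to 4 genes per list, and Esm1; Bcas1, Rapgef3, further list genes and genes named for a promoter peak in WT replicate 1, were chosen after their values were seen. The regions, gene lists and motifs were chosen with earlier results of these data known. Python 3.11.15, pandas 2.3.3, SciPy 1.17.1 and pysam 0.24.0 were used. Some named items are not reported here.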

Additional observations from a re-analysis of the deposited data

How the results depend on the processing

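Of the alternative values for the main results, 38 stayed within the limits set for them, 32 moved and 3 rose past the threshold. With equal numbers of peaks per list, 2393 regions had the pattern, 14.9% over promoters, 4.30% with ACAATGG and 1.96% at least 2-fold higher in KO replicate 2, against 0.836% in WT replicate 1. At a −log10 q of 5 or more, promoters took 14.9%, median GC was 53.5%, 5 regions were linked to oligodendrocyte genes, summits lay 53 bp apart and the 2-fold shares were 1.78% for KO replicate 2 and 1.498% for WT replicate 1, so both settings turned the order of the 2-fold shares. Merging 500 bp summit windows gave 18.8% over promoters, above the 16.5% of all regions, and 5.45% with ACAATGG, against 2.17% of all regions. Searching 500 bp gave 12.3% with ACAATGG, against 5.80% of all regions, and a GC of 51%. Promoters of 500 bp and 2500 bp gave 9.07% and 17.1%, linking within 10 kb gave 5 oligodendrocyte regions, and requiring 50% cover gave a 2-fold share of 0.373%. Leaving out a library relaxes the selection itself: it gave 1918 to 10903 regions, 7.98% to 12.4% over promoters, a GC of 49.5% to 52.5%, 3.50% to 6.17% with ACAATGG, 9 to 30 oligodendrocyte regions, summits 65.5 to 67 bp apart and a 2-fold share of 0.459% to 2.45%. Without KO replicate 2 or WT replicate 1 no summit distance or height ratio exists. For KO against WT by limma, leaving out a library left 1 in a group, and the calls of those fits were not interpreted. A distance of 50 kb gave 1 call among 3789 tested regions, at Foxf1, against 19 among all 48089. Its heights were 30 in KO replicate 1, 89 in KO replicate 2, 17 in WT replicate 1 and 19 in WT replicate 2. With the replicate number as a block there were 0 calls within 10 kb and 10 in all. Same-numbered deviations had an r of −0.34, which cannot tell whether same-numbered tumors shared a batch. The crossed pairing, chosen after seeing the data, gave 0 calls near the regions and 81 higher and 20 lower in all. Apart from the changes shown by each setting's construction, the cause was not tested. WT replicate 1 had the lowest depth, and the part of depth in the pattern was not tested.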
